A study of Mus musculus with 16 samples.

Results

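*Kit* encodes the receptor tyrosine kinase for stem cell factor, and 9 further genes encode proteins that act at or next to the activated receptor: the kinase gene *Lyn*, the adaptor and exchange factor genes *Grb2*, *Gab2*, *Shc1* and *Sos1*, the ubiquitin ligase gene *Cbl*, and the phosphatase genes *Ptpn6*, *Ptpn11* and *Inpp5d*. These 10 genes were chosen by symbol, and all 10 were found among the 15386 genes of the RNA-seq table and among the 13490 genes of the m6A table. Stem cell factor pairs Kit receptors, which phosphorylate each other, and the phosphorylated tails recruit adaptors that pass the signal to RAS and ERK and to PI3-kinase. Ubiquitin ligases take the active receptor into the cell for degradation, and phosphatases remove the phosphates that carry the signal. In bone marrow, Kit signalling maintains early erythroid progenitors and is turned down as erythroid cells mature.

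The study deleted *Mettl3*, which encodes the catalytic subunit of the m6A methyltransferase complex, in mouse erythroid cells. Bone marrow CFU-E, the colony-forming progenitors that respond to erythropoietin, were sorted as Kit+ CD71+ cells lacking lineage, CD16/32, CD41, CD34 and Sca1 markers. RNA-seq compared 3 libraries of control CFU-E with 3 libraries labelled Kit-low *Mettl3* KO (below, the libraries labelled Kit-low KO), and m6A sequencing compared 2 immunoprecipitated (IP) with 2 input libraries, all of control CFU-E. The Kit-low KO cells came from *Mettl3* fl/fl mice carrying one *EpoR*-tdTomato-Cre allele, the study's mice being C57BL/6 adults of both sexes. The exact genotype of the control mice in these assays was not given in the sources used here. *EpoR*-driven Cre also recombines in the macrophages of erythroblastic islands. The Kit-low KO cells were the fraction of mutant CFU-E with little Kit on the surface, while the control CFU-E were not divided by Kit level. Genotype and the Kit-low gate therefore cannot be told apart in these libraries. Kit protein set the gate, so the RNA-seq change of *Kit* is described without a test.

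The libraries held 17429262 to 21329242 estimated counts in RNA-seq and 19421059 to 37142742 in the m6A assay. *Mettl3* itself stood at 115, 123 and 130 CPM (counts scaled to library size after TMM) in the control CFU-E, while the libraries labelled Kit-low KO held 117, 127 and 108 CPM. The groups overlapped (log2 fold change -0.07, SE 0.096, adjusted p = 0.63 by the quasi-likelihood test of edgeR with Benjamini-Hochberg correction), so the *Mettl3* level in these libraries did not separate the labels. A gene-level count does not separate floxed exons from the rest of the transcript, and *Tox4*, transcribed from the other strand, covers 18.4% of its exonic bases. All 7 erythroid identity genes, among them *Gata1*, *Klf1* and *Epor*, were measured, and their summed level was 2637 to 2754 CPM in control and 3320 to 3505 CPM in the libraries labelled Kit-low KO.

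For the m6A assay, the position of one common methylation sequence, GGACT, was read from 1 annotated transcript a gene, on the transcript's own strand. The windows below show *Kit* and the 5 genes that differed between IP and input. Each gives the GGACT nearest the stop codon, in capitals, with 10 bases on each side, in DNA letters from GENCODE M21 on GRCm38.
*Kit*: gtaaacagaaGGACTcctcctgctt
*Lyn*: taatctgtcaGGACTttatgagacc
*Shc1*: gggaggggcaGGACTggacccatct
*Sos1*: tcacgtgaagGGACTtttctggcca
*Grb2*: gcgctcctggGGACTtctccctgtc
*Ptpn6*: agaactcaggGGACTtctatgacct

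In *Kit* the GGACT lay at chr5:75654822-75654826 on the plus strand, in the 3′ UTR part of exon 21, the last exon. In *Lyn* it lay at chr4:3790718-3790722 (plus strand, exon 13), in *Shc1* at chr3:89429276-89429280 (plus strand, exon 13) and in *Sos1* at chr17:80397952-80397956 (minus strand, exon 22), all in the 3′ UTR. In *Grb2* it lay in coding sequence at chr11:115649787-115649791 (minus strand, exon 4), and in *Ptpn6* in coding sequence at chr6:124732448-124732452 (minus strand, exon 3). The m6A values below are sums over whole genes and do not say whether any of these adenosines was methylated. Of the 11419 tested genes with a transcript, 91.4% held at least 1 GGACT.

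In RNA-seq, the receptor gene changed far more than the genes of its partners. *Kit* was lower by 3.44 on the log2 scale, *Grb2* and *Cbl* fell by about 1 (1.05 and 1.04), *Shc1* and *Inpp5d* rose by less than 1.5-fold (5.43% of all genes tested did so at an adjusted p under 0.05), and *Lyn*, *Gab2*, *Sos1*, *Ptpn6* and *Ptpn11* did not pass the test. A gene was called at a fold of at least 1.5 and an adjusted p under 0.05 over the 11979 genes tested. With *Kit* included as a description, 3 of the 10 genes were called lower, against a background of 9.83% of all genes tested, and 0 were called higher, against 12.1%. Because Kit protein set the gate, only *Grb2* and *Cbl* of these 3 can be set against that background. An unadjusted p under 0.05 was found for 3 genes on the higher side (*Shc1*, *Ptpn6* and *Inpp5d*), where 22% of all genes tested had one on that side, and DESeq2 also called 3 lower and 0 higher. Without the fold threshold 2 genes were called higher and 3 lower, where 17.6% and 16.9% of all genes tested were. The median log2 fold change over the 9 partners was 0.091, beside 0.0080 over all genes tested. In bulk RNA, fewer cells of a type and less RNA per cell cannot be told apart. Where nothing says that replicates came from separate mice, the p-values measure only the spread between these samples, which may be technical.

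*Kit*, the receptor, was measured at 544, 629 and 622 CPM in the control CFU-E, against 68.5, 53.1 and 44.0 CPM in the libraries labelled Kit-low KO. The lowest control library lay far above the highest library labelled Kit-low KO, with means of 598 ± 47.1 and 55.2 ± 12.4 CPM (SD, n = 3 each). The log2 fold change was -3.44 (SE 0.15), and 0.518% of the genes tested had a change at or below it.

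Among the adaptors, *Grb2*, whose protein joins the phosphorylated receptor to the RAS exchange factor SOS, was at 40.2, 38.5 and 43.6 CPM in control and 20.5, 16.4 and 22.3 CPM in the libraries labelled Kit-low KO. Every library labelled Kit-low KO lay below every control library. *Grb2* fell by 1.05 on the log2 scale (SE 0.15, adjusted p = 0.00047, edgeR), and 6.6% of the genes tested had a change at or below this one. *Shc1*, which encodes an adaptor that links receptors to GRB2, moved the other way, from 290, 309 and 304 CPM to 433, 407 and 421 CPM. The groups did not overlap, and the rise of 0.48 on the log2 scale (SE 0.071, adjusted p = 0.00059, edgeR) stayed under 1.5-fold. The 2 adaptors of the same receptor thus changed in opposite directions in these libraries.

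*Gab2*, which encodes a docking protein that brings PI3-kinase and SHP-2 to the receptor complex, was the scarcest of the 10 genes per length of transcript. It stood at 5.46, 4.18 and 4.92 CPM in control and 7.17, 4.76 and 3.60 CPM in the libraries labelled Kit-low KO (log2 fold change 0.09, SE 0.32, adjusted p = 0.86, edgeR). Its groups overlapped, and the direction of its change turned when control replicate 2 or Kit-low KO replicate 1 was left out (-0.012 and -0.22 on the log2 scale). *Sos1*, whose protein loads RAS with GTP, stood at 26.5, 24.1 and 28.3 CPM in control, against 24.6, 24.6 and 20.1 CPM in the libraries labelled Kit-low KO. These groups also overlapped (log2 fold change -0.19, SE 0.15, adjusted p = 0.36, edgeR).

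*Lyn* encodes a Src-family kinase that associates with Kit. Its level was 28.1, 38.7 and 31.4 CPM in control and 30.9, 30.2 and 33.2 CPM in the libraries labelled Kit-low KO, with the libraries labelled Kit-low KO inside the control range. The log2 fold change was -0.06 (SE 0.15, adjusted p = 0.80, edgeR) and became 0.07 without control replicate 2. A long noncoding locus on the other strand, *Gm26857*, shares 6.09% of the exonic bases of *Lyn*, and the use of strand in counting was not given in the sources used here.

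*Cbl*, which encodes the ubiquitin ligase that marks active receptors for removal, was at 28.6, 33.1 and 22.4 CPM in control and 13.0, 15.9 and 11.9 CPM in the libraries labelled Kit-low KO. The groups did not overlap, and *Cbl* fell by 1.04 on the log2 scale (SE 0.19, adjusted p = 0.0019, edgeR). The receptor gene and the gene of the ligase that removes its protein were thus lower in the same libraries. The calls of *Grb2* and *Cbl* held under all 13 alternatives tried, with log2 fold changes of -1.13 to -0.91 and of -1.18 to -0.91.

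The 3 phosphatase genes all had positive log2 fold changes. *Inpp5d*, which encodes SHIP1, a phosphatase that dephosphorylates the product of PI3-kinase, was at 218, 214 and 236 CPM in control and 324, 280 and 256 CPM in the libraries labelled Kit-low KO. The groups did not overlap, and the rise of 0.36 on the log2 scale (SE 0.097, adjusted p = 0.016, edgeR) was under 1.5-fold. Without control replicate 1 or control replicate 2 the adjusted p was 0.070 and 0.065, in a range of 0.0049 to 0.070 over the alternatives.

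*Ptpn6*, which encodes SHP-1, an inhibitor of Kit signalling, was at 125, 125 and 128 CPM in control and 166, 136 and 140 CPM in the libraries labelled Kit-low KO. Its groups did not overlap, but the log2 fold change of 0.23 (SE 0.096) did not pass the correction (adjusted p = 0.097, edgeR). *Gm20531*, on the opposite strand, covers 6.96% of the exonic bases of *Ptpn6*. *Ptpn11*, which encodes SHP-2, a phosphatase that mostly promotes RAS signalling, was at 61.1, 46.3 and 62.9 CPM in control and 54.5, 76.8 and 80.2 CPM in the libraries labelled Kit-low KO. Those groups overlapped (log2 fold change 0.31, SE 0.17, adjusted p = 0.18, edgeR). Without Kit-low KO replicate 1 the adjusted p was 0.027 (0.027 to 0.49 over the alternatives), still under 1.5-fold.

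Across the 10 genes, 3 had every library labelled Kit-low KO above every control library, 3 had every one below, and 4 overlapped, where 23.5% and 24% of all genes tested were separated in these directions and 47.5% in either. Of the 3 below, *Kit* is counted only as a description because Kit protein set the gate. Only *Grb2* and *Cbl* of these can be set against the share.

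**Figure D1:**
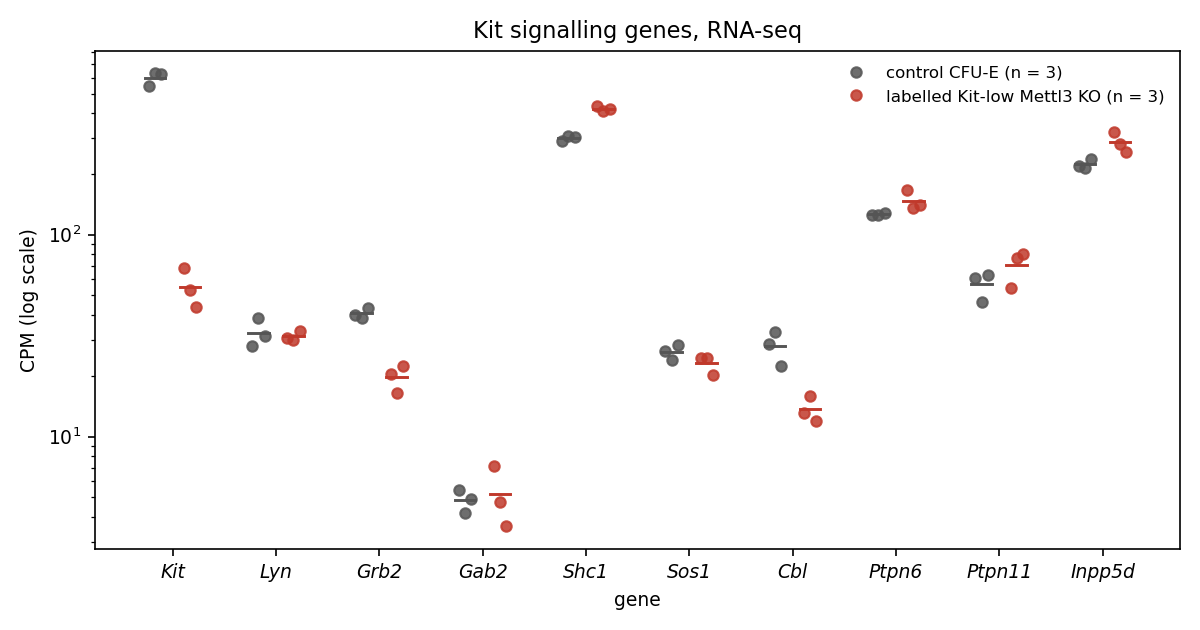
Level of the 10 genes in each RNA-seq library, in CPM on a log axis, for control CFU-E (grey, n = 3) and the libraries labelled Kit-low Mettl3 KO (red, n = 3); points are libraries and lines are group means. Kit is separated by the widest gap, Grb2 and Cbl are lower without overlap, and Shc1, Ptpn6 and Inpp5d are higher without overlap.

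To set the receptor against its partners, the log2 CPM of each partner was subtracted from that of *Kit* in each library, and only the change of this difference was read, in which transcript length cancels. Against the median of the 9 partners, the difference was 3.75, 4.02 and 3.83 in control and 1.15, 0.81 and 0.41 in the libraries labelled Kit-low KO, with no overlap. The change of *Kit* on this scale was -3.94 relative to *Shc1*, -3.81 relative to *Inpp5d*, -3.76 relative to *Ptpn11* and -3.68 relative to *Ptpn6*. It was smaller relative to *Grb2* (-2.40) and *Cbl* (-2.43), which also fell, with *Gab2* (-3.50), *Lyn* (-3.41) and *Sos1* (-3.27) between. The fall of *Kit* thus exceeded that of each partner, and these differences are descriptions because *Kit* protein set the gate.

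Per kilobase of transcript, *Shc1* ranked first in control CFU-E, at 169 ± 5.65 CPM per kb (SD, n = 3), followed by *Ptpn6* (115 ± 1.57 CPM per kb) and *Kit* (114 ± 9.01 CPM per kb). The last 2 of these did not differ beyond their spread on these lengths. *Inpp5d* followed at 56.5 ± 2.92 CPM per kb and *Grb2* at 17.5 ± 1.10 CPM per kb. The neighbours *Ptpn11*, *Cbl* and *Lyn*, at 10.2 ± 1.63, 9.98 ± 1.90 and 9.55 ± 1.58 CPM per kb, could not be separated by their spread. *Sos1* (3.12 ± 0.253 CPM per kb) and *Gab2* (1.18 ± 0.157 CPM per kb) were lowest. In the libraries labelled Kit-low KO, *Kit* moved to rank 5 at 10.6 ± 2.37 CPM per kb, behind *Ptpn11* at 12.7 ± 2.50 CPM per kb, a gap within the spread, and level with *Lyn* at 9.17 ± 0.461 CPM per kb within the spread. *Grb2* followed at 8.46 ± 1.30 CPM per kb and *Cbl* at 4.85 ± 0.723 CPM per kb. Lengths were medians over annotated transcripts. With the longest transcript *Kit* ranked first in control (114 CPM per kb) ahead of *Shc1* (92.6 CPM per kb) and *Ptpn6* (54.6 CPM per kb), and *Cbl* moved to 2.46 CPM per kb. The order of the first 3 genes thus rests on the choice of transcript.

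The 5 tested genes whose centred log2 CPM followed that of *Kit* most closely over the 6 RNA-seq libraries were *Kyat3*, *Dnase1*, *Hk2*, *Ramp1* and *Apoe*, with root mean square differences of 0.21 to 0.24. They were picked for this likeness, so their levels are a description. The likeness was read on log2 CPM with a prior count of 2, which narrows differences at low counts. Their fitted log2 fold changes ran from -4.28 (*Dnase1*) to -3.24 (*Ramp1*), beside -3.44 for *Kit*. *Apoe*, which encodes a lipid carrier, was at 115, 126 and 141 CPM in control and 9.82, 8.98 and 10.2 CPM in the libraries labelled Kit-low KO. *Hk2*, which encodes a hexokinase, was at 4.69, 4.29 and 7.27 CPM in control, against 0.571, 0.340 and 0.313 CPM in the libraries labelled Kit-low KO. Of the partners, *Grb2* and *Cbl* were nearest to *Kit*, at ranks 647 and 665 among the genes tested, and *Shc1* was the farthest, at rank 9162.

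Marker genes of maturation stage also differed between the groups, where 12.1% of all genes tested were called higher and 9.83% lower. The summed level of the late erythroid list, which holds *Slc4a1* and the globin genes, was 749 to 808 CPM in control and 3390 to 5226 CPM in the libraries labelled Kit-low KO, and 9 of its 11 tested genes were called higher. The early progenitor list summed to 1179 to 1254 CPM in control and 736 to 922 CPM in the libraries labelled Kit-low KO, with 1 of 8 tested genes called higher and 3 lower. The 3 were *Gata2*, *Myb* and *Hhex*, and the 1 called higher was *Zfpm1* (log2 fold change 1.46, SE 0.26, adjusted p = 0.0019, edgeR). The largest part of the sum was *Myc*, with means of 864 CPM in control and 666 CPM in the libraries labelled Kit-low KO, which was not called. The part of maturation stage in the changes of *Kit*, *Grb2* and *Cbl* was not tested. Mast cell and basophil genes, from a lineage that also carries Kit, summed to 2.78 to 5.78 CPM in control and 0.388 to 3.60 CPM in the libraries labelled Kit-low KO, with *Cpa3* at 15, 12 and 8 counts in control and 0, 0 and 0 counts in the others. Megakaryocyte genes summed to 21.1 to 27.2 and 21.2 to 29.2 CPM, macrophage genes to 9.44 to 14.0 and 8.16 to 10.2 CPM, and granulocyte genes to 25.5 to 37.8 and 16.0 to 24.0 CPM. These sums hide single genes. Of 5 tested megakaryocyte genes 2 were called higher and 1 lower, of 6 macrophage genes 0 and 1, and of 4 granulocyte genes 1 and 1. All 7 lymphoid genes in the table were under 1 CPM in every RNA-seq library. The m6A libraries of control CFU-E differed, where the lymphoid genes measured summed to 30.7 to 46.5 CPM in input. In IP the sum was 16.1 to 17.8 CPM, and 5 of the 7 genes were under 1 CPM in every m6A library. *Epor*, the erythropoietin receptor of the CFU-E, stood in RNA-seq at 227, 226 and 223 CPM in control and 367, 339 and 313 CPM in the libraries labelled Kit-low KO. The 2 cytokine receptor genes moved in opposite directions, with *Kit* as a description. *Epor* rose by 0.59 on the log2 scale (SE 0.080, adjusted p = 0.00036, edgeR). Its rise fell just under 1.5-fold without control replicate 3 (0.58) or Kit-low KO replicate 1 (0.53). The same held with upper quartile scaling (0.55) or no filter on low counts (0.57). The Kit-low KO mice carried an *EpoR*-tdTomato-Cre allele and the control genotype was not given. Any effect of that allele on the *Epor* level cannot be told apart here.

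**Figure D2:**
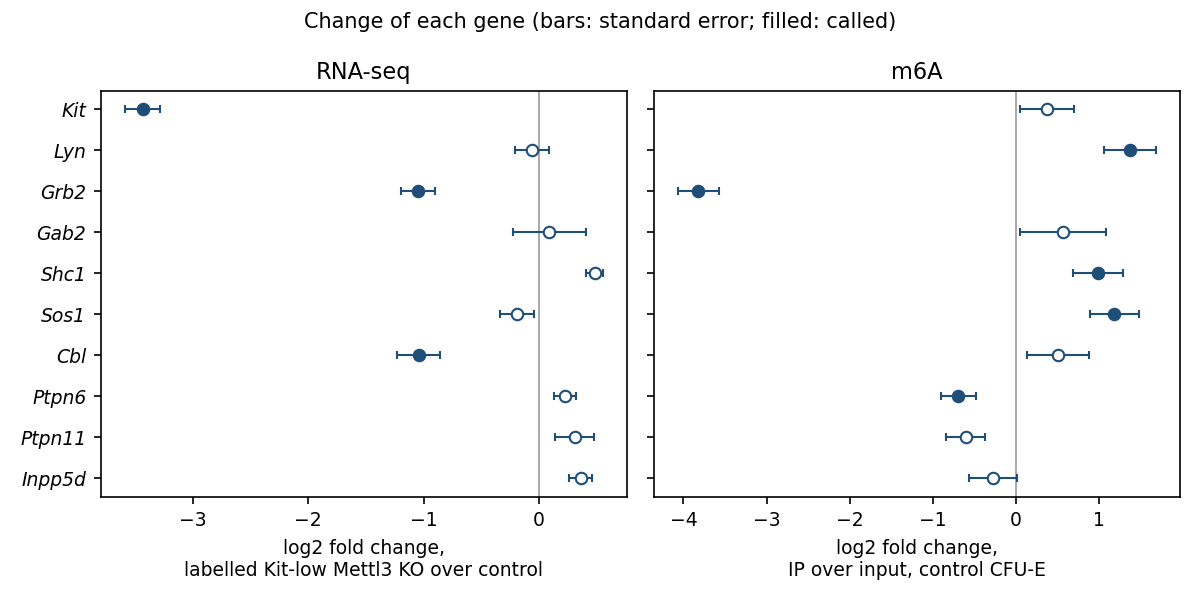
Log2 fold change of each gene with its standard error, for RNA-seq (left, libraries labelled Kit-low Mettl3 KO over control CFU-E, n = 3 each) and for m6A (right, IP over input of control CFU-E, n = 2 each); filled points were called, Kit in RNA-seq by the same thresholds but as a description. Kit has the largest RNA-seq change at -3.44 and no call in m6A, and Grb2 has the largest IP difference at -3.82.

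The m6A assay asked which transcripts of control CFU-E were captured by an antibody against m6A. IP and input were compared on their share of the library, so a negative value means a smaller share in the IP than in the input and not a lack of m6A. Of the 10 genes, *Lyn*, *Shc1* and *Sos1* were enriched in the IP and *Grb2* and *Ptpn6* were lower, at an adjusted p under 0.05. Of the 11447 genes tested, 7.9% were enriched and 7.86% lower. *Kit*, *Gab2*, *Cbl*, *Ptpn11* and *Inpp5d* did not pass the test. The median log2 fold change of the 10 genes was 0.44, beside 0.056 over all genes tested. These libraries were normalized separately from the RNA-seq libraries and read the 3′ ends of transcripts, so no test crosses the tables.

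*Kit* was at 40.1 and 20.8 CPM in input and 46.2 and 32.9 CPM in IP. The 2 input libraries lay further apart than the 2 IP libraries, and the groups overlapped (log2 fold change 0.38, SE 0.33, adjusted p = 0.46, edgeR). Without input replicate 2 the value was -0.026, and the leave-one-out range reached 0.90. *Kit* had 370 to 1927 counts in these libraries.

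*Lyn* rose from 4.81 and 4.10 CPM in input to 13.5 and 9.50 CPM in IP, without overlap (log2 fold change 1.37, SE 0.31, adjusted p = 0.015, edgeR). Of all genes tested, 5.47% had an enrichment at or above that of *Lyn*. *Sos1* rose from 4.50 and 4.33 CPM to 10.8 and 9.25 CPM (log2 fold change 1.18, SE 0.29, adjusted p = 0.023, edgeR). *Shc1* rose from 32.4 and 21.6 CPM to 66.1 and 41.2 CPM, also without overlap (log2 fold change 0.99, SE 0.30, adjusted p = 0.049, edgeR). Each of these 3 enrichments lost its call when input replicate 1, input replicate 2 or IP replicate 1 was left out, with log2 fold changes of 1.07 to 1.47 for *Lyn*, 1.05 to 1.19 for *Sos1* and 0.59 to 1.29 for *Shc1*. *Shc1* also lost it when scaled by library size only (adjusted p = 0.056). Over the alternatives the adjusted p ran from 0.0014 to 0.082 for *Lyn*, from 0.0043 to 0.14 for *Sos1* and from 0.00070 to 0.28 for *Shc1*.

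*Grb2* stood apart from the other adaptor genes, at 189 and 206 CPM in input and 12.7 and 15.4 CPM in IP. Its IP level was 92.9% below its input level, and *Grb2* fell by 3.82 on the log2 scale (SE 0.24, adjusted p = 6.6e-06, edgeR). Of all genes tested, 0.533% had a value at or below this one, and the call held under all 11 alternatives tried (-3.96 to -3.67 on the log2 scale). *Gab2* was at 0.661 and 0.899 CPM in input, from 15 and 16 counts, and at 1.05 and 1.26 CPM in IP. Its groups did not overlap, and the difference did not pass the test (log2 fold change 0.56, SE 0.52, adjusted p = 0.49, edgeR).

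*Cbl* was at 3.22 and 4.10 CPM in input and 3.86 and 6.58 CPM in IP, with overlap (log2 fold change 0.50, SE 0.37, adjusted p = 0.38, edgeR). *Ptpn6* was at 158 and 143 CPM in input and 89.7 and 96.4 CPM in IP, without overlap (log2 fold change -0.70, SE 0.21, adjusted p = 0.048, edgeR). This call was lost when any 1 of the 4 libraries was left out (-0.77 to -0.64, adjusted p of 0.070 to 0.28) and with library size only or upper quartile scaling (0.11 and 0.10, range over all alternatives 0.0036 to 0.28).

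*Ptpn11* was at 30.2 and 34.7 CPM in input and 21.3 and 21.3 CPM in IP, a smaller share in both IP libraries that did not pass the test (log2 fold change -0.61, SE 0.24, adjusted p = 0.11, edgeR). *Inpp5d* was at 12.0 and 10.7 CPM in input and 10.9 and 7.79 CPM in IP, with overlap (log2 fold change -0.27, SE 0.29, adjusted p = 0.55, edgeR). The log2 fold changes of all 3 phosphatase genes were below 0, and those of *Lyn* and of 3 of the 4 adaptor and exchange factor genes were above 0. In the further pathway list given below, the 14 tested adaptors had a median log2 fold change of 0.18. The 7 tested tyrosine phosphatases had a median of 0.046, so both medians were above 0. By calls rather than by sign, 0 of these adaptors were enriched and 3 lower, and 1 of these phosphatases was enriched and 0 lower. Over all genes tested, 7.9% were enriched and 7.86% lower. Over the 10 genes, 4 had both IP libraries above both input libraries and 3 had both below, where 32.2% and 28.7% of all genes tested did so (60.9% in either direction).

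**Figure D3:**
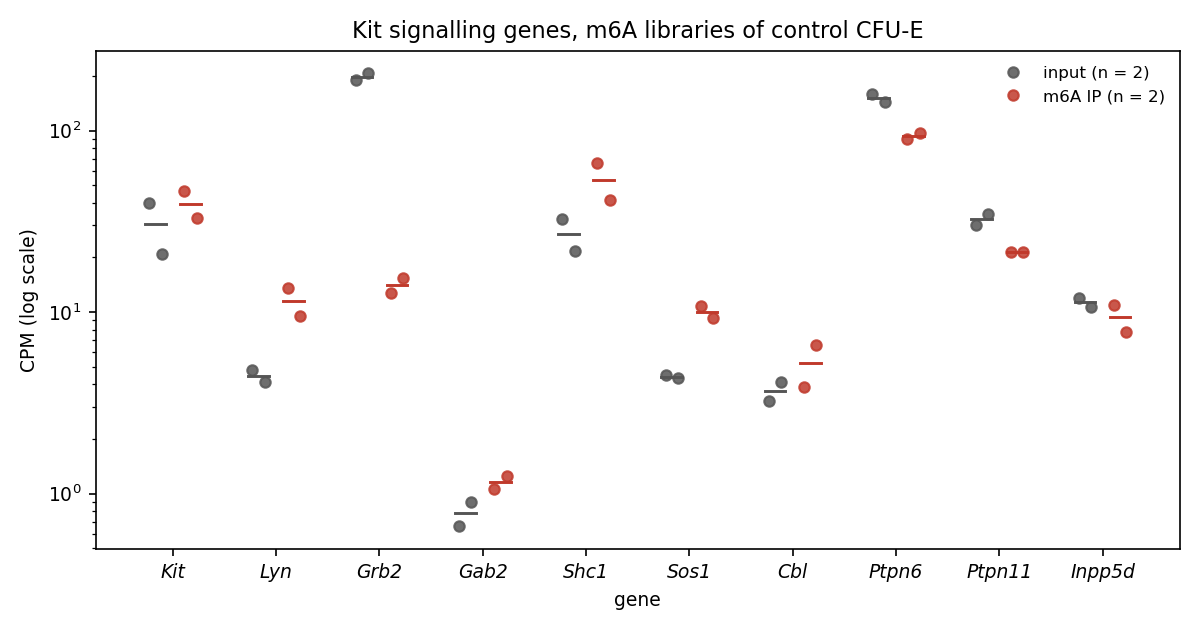
Level of the 10 genes in each m6A library of control CFU-E, in CPM on a log axis, for input (grey, n = 2) and IP (red, n = 2); points are libraries and lines are group means. Grb2 falls from 189 and 206 CPM to 12.7 and 15.4 CPM, while Lyn, Shc1 and Sos1 are higher in both IP libraries.

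The annotated transcripts gave no simple order for these values. *Grb2*, the lowest in the IP, had the highest density of GGACT among the 10, at 1.48 per kb, with 1 in coding sequence and 3 in the 3′ UTR. At or above this density were 26.4% of the tested genes, whose median was 1.03 per kb. *Lyn*, the highest in the IP, had the lowest density, at 0.30 per kb (a single GGACT), and *Kit* had 0.38 per kb. Across the 10 genes Spearman's rho of GGACT density with IP over input was -0.47, and across 11419 genes it was -0.067. Transcript length had a rho of 0.41 across the 10 genes and 0.33 across all, and GC content -0.33 across all. Genes are not independent replicates, and these are descriptions. In the length class of *Grb2*, 2000 to 3000 bases, the median log2 fold change was 0.027, and among genes under 2000 bases it was -0.25. *Grb2* lay far below both.

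Set side by side, *Grb2* was called in both comparisons, lower in each. The 3 genes enriched in the IP (*Lyn*, *Shc1* and *Sos1*) had RNA-seq log2 fold changes of -0.06, 0.48 and -0.19, none of them called. The 3 genes lower in RNA-seq (*Kit*, *Grb2* and *Cbl*) had IP over input values of 0.38, -3.82 and 0.50, none of them enriched. Over all genes tested in both, 10.2% of the 864 enriched genes, 9.96% of the 833 genes lower in the IP and 10.5% of the 9076 remaining genes were called lower in RNA-seq. The shares called higher in RNA-seq were 10.3%, 17.3% and 12.1% in the same order, and the differences between them were not tested.

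A further list of 83 genes of the Kit pathway, without the 10 above, gave the surroundings. In RNA-seq 68 of them were tested, 9 were called higher (13.2%, background 12.1%) and 13 lower (19.1%, background 9.83%), with a median log2 fold change of -0.08. Without control replicate 2 or Kit-low KO replicate 2 the count of lower genes was 8. The gene of the ligand, *Kitl*, was on this list but was not found by symbol in the RNA-seq table or the m6A table.

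Of the 8 tested kinases that act next to the receptor, 3 were called lower and 0 higher, where 9.83% and 12.1% of all genes tested were. *Tec*, a kinase of the Btk family, was at 37, 23 and 41 counts in control and 4, 0 and 1 counts in the libraries labelled Kit-low KO (log2 fold change -4.31, SE 0.83, adjusted p = 0.0028, edgeR). At such counts the fitted size depends on the prior count, and it was -5.84 without Kit-low KO replicate 1 and -3.70 without Kit-low KO replicate 2. *Matk* and *Fer* were called at -2.06 and -0.78, and each lost its call without any 1 of the control libraries or Kit-low KO replicate 2 (highest adjusted p 0.17 and 0.081), *Matk* also without Kit-low KO replicate 3.

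Of 14 tested adaptors, 3 were called higher (21.4%, background 12.1%) and 2 lower (14.3%, background 9.83%). *Grb10*, an adaptor that binds activated receptors, fell by 2.61 on the log2 scale (SE 0.13, adjusted p = 1.3e-06, edgeR), from 130, 142 and 163 CPM to 27.5, 22.3 and 21.6 CPM. *Dok1*, which encodes a docking protein that restrains RAS, rose from 73.9, 81.4 and 67.1 CPM to 156, 142 and 134 CPM (log2 fold change 0.96, SE 0.11, adjusted p = 9.7e-05, edgeR). Neither of these pairs of groups overlapped. *Sh2b2* was called at -1.11, from 3.69, 3.55 and 2.98 CPM to 1.30, 1.46 and 1.98 CPM, and lost its call without each library but Kit-low KO replicate 3 (adjusted p of 0.076 to 0.12).

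Among the RAS switches, *Vav1*, an exchange factor for RAC, fell by 1.05 on the log2 scale (SE 0.14, adjusted p = 0.00030, edgeR). It went from 94.6, 108 and 106 CPM to 60.1, 47.3 and 42.0 CPM, without overlap. *Vav2* (-0.87) and *Hras* (0.69) were called with adjusted p of 0.048 and 0.038 by edgeR, and both lost the call when any 1 control library or Kit-low KO replicate 2 was left out (highest adjusted p 0.15 and 0.10). *Vav2* also lost it without Kit-low KO replicate 3, and *Hras* without Kit-low KO replicate 1.

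In lipid signalling 3 of 15 genes were called higher (20%, background 12.1%) and 2 lower (13.3%, background 9.83%). *Plcg2*, a phospholipase that makes calcium-releasing messengers, fell from 6.75, 6.75 and 7.61 CPM to 2.08, 0.194 and 0.939 CPM (log2 fold change -2.72, SE 0.59, adjusted p = 0.0055, edgeR), and its size was -3.64 without Kit-low KO replicate 1 and -2.19 without Kit-low KO replicate 2. *Inppl1*, the SHIP2 gene and a relative of *Inpp5d*, was called at 2.16 (SE 0.59, adjusted p = 0.017, edgeR), from 1.72, 0.572 and 1.20 CPM to 1.97, 4.90 and 8.97 CPM. The first of the libraries labelled Kit-low KO lay just above the highest control library, and without the third the log2 fold change was 1.55 (adjusted p = 0.057). The call was also lost without control replicate 2 or control replicate 3 (1.83 and 2.17). *Pik3cb* was called at 0.93 and lost its call without control replicate 2, control replicate 3 or Kit-low KO replicate 3 (1.01, 0.67 and 0.74).

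Of the genes for receptor removal, *Socs6*, which encodes a protein that directs Kit to degradation, rose from 48.5, 39.1 and 45.7 CPM to 96.7, 99.1 and 97.2 CPM (log2 fold change 1.14, SE 0.11, adjusted p = 4.2e-05, edgeR). It moved opposite to *Cbl*. *Socs1*, an inhibitor of cytokine signalling, was called at 2.14 from 6, 9 and 10 counts in control and 32, 28 and 59 counts in the libraries labelled Kit-low KO, and lost its call without control replicate 1 (adjusted p = 0.064, log2 fold change 1.88) or Kit-low KO replicate 3 (0.057, 1.73). *Sh3kbp1*, whose protein binds CBL, fell by 0.66 on the log2 scale (SE 0.12, adjusted p = 0.0022, edgeR) and by 0.56, under 1.5-fold, without Kit-low KO replicate 1.

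The receptor-type phosphatase genes *Ptprc* (CD45) and *Ptpra* fell. *Ptprc* went from 35.2, 36.6 and 40.3 CPM to 8.05, 15.1 and 7.93 CPM (log2 fold change -1.85, SE 0.24, adjusted p = 0.00030, edgeR). *Ptpra* went from 32.9, 38.8 and 40.6 CPM to 15.0, 12.0 and 24.3 CPM (log2 fold change -1.13, SE 0.24, adjusted p = 0.0044, edgeR). The other 5 phosphatase genes of the list were not called. Of the 7 tested, 2 were thus called lower (28.6%, background 9.83%) and 0 higher (background 12.1%).

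**Figure D4:**
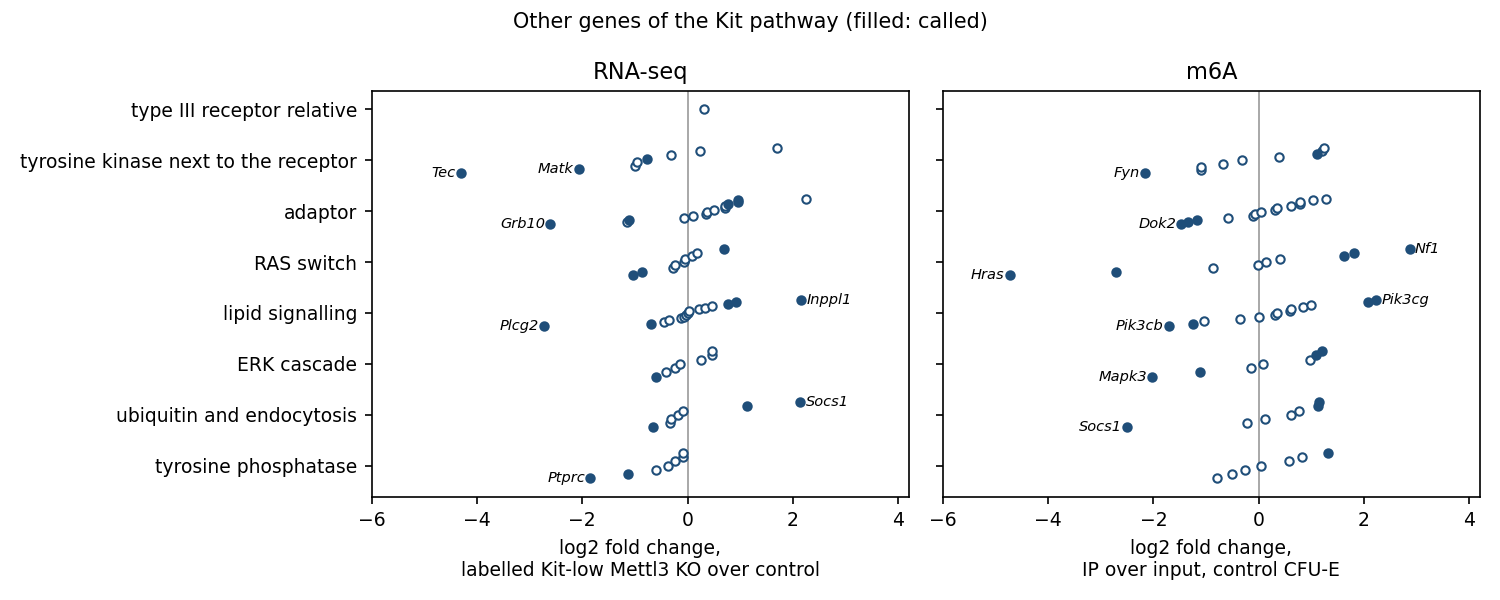
Log2 fold change of the tested genes of the Kit pathway list by role, for RNA-seq (left, libraries labelled Kit-low Mettl3 KO over control CFU-E, 68 genes) and m6A (right, IP over input of control CFU-E, 66 genes); filled points were called, and some of those past 1.4 on the log2 scale are named. In RNA-seq the 3 called kinases are all lower, and in m6A the genes of the RAS switch lie at both ends, from Hras at -4.73 to Nf1 at 2.87.

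In the m6A libraries 66 genes of the list were tested, 11 were enriched (16.7%, background 7.9%) and 11 were lower (16.7%, background 7.86%), with a median log2 fold change of 0.22. The enriched genes numbered 4 without input replicate 1 or IP replicate 1 and 6 without input replicate 2, and the lower genes numbered 5 without input replicate 1. Over all genes tested, the enriched fell from 904 to 164 without input replicate 1, to 433 without IP replicate 1 and to 571 without input replicate 2, and the lower from 900 to 427 without input replicate 1. The genes of the RAS switch spread to both sides. *Hras* was at 193 and 152 CPM in input and 6.93 and 6.08 CPM in IP (log2 fold change -4.73, SE 0.27, adjusted p = 3.6e-06, edgeR). *Nf1*, which encodes an inhibitor of RAS, rose from 2.38 and 2.75 CPM to 21.4 and 16.0 CPM (log2 fold change 2.87, SE 0.31, adjusted p = 0.00018, edgeR). Of the 9 tested genes of this role, 3 were enriched (33.3%, background 7.9%) and 2 were lower (22.2%, background 7.86%). The RAS gene *Nras* was among the enriched (log2 fold change 1.63, SE 0.24, adjusted p = 0.0013, edgeR). *Hras* and *Nras* thus lay on opposite sides, and *Hras* does not stand for the RAS genes.

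*Mapk3* (ERK1) fell from 23.1 and 18.1 CPM to 5.63 and 4.42 CPM (log2 fold change -2.02, SE 0.29, adjusted p = 0.0012, edgeR). *Fyn*, a Src-family kinase like *Lyn*, fell from 11.7 and 8.04 CPM to 2.28 and 2.11 CPM (log2 fold change -2.16, SE 0.34, adjusted p = 0.0020, edgeR). The 2 Src-family kinase genes *Lyn* and *Fyn* thus lay on opposite sides. The docking gene *Dok2* fell from 18.6 and 27.3 CPM to 8.68 and 7.84 CPM (log2 fold change -1.47, SE 0.29, adjusted p = 0.0074, edgeR). These 5 calls, of *Hras*, *Nf1*, *Mapk3*, *Fyn* and *Dok2*, held under every alternative fit run. The calls of *Btk*, *Sh2b2*, *Dok1*, *Pik3cg*, *Pik3cb*, *Braf*, *Map2k2*, *Socs1*, *Socs6*, *Stam* and *Ptprj* were all lost without input replicate 1 (adjusted p of 0.074 to 0.25).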

How the data were processed

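Per the labels and methods, RNA-seq libraries were made with Smart-seq2 chemistry from oligo-dT-primed RNA, and m6A libraries by super-low-input m6A sequencing (anti-m6A IP, oligo-dT priming with a UMI, 3′ ends). The authors trimmed reads with fastp 0.23.4, ran kallisto 0.48.0 on mm10 and merged transcripts with tximport, and the deposited values are estimated counts per gene. Whether UMIs were collapsed or strand was used was not given in the sources used here. Here the estimated counts were rounded and fitted in R 4.3.3 with edgeR 4.0.16 (filterByExpr, TMM, quasi-likelihood test) over each whole table, with Benjamini-Hochberg correction. RNA-seq calls needed a fold of 1.5 and an adjusted p under 0.05, and m6A calls an adjusted p under 0.05. The fits were tested on simulated data. CPM use TMM-scaled library sizes, and log2 CPM a prior count of 2.

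Alternatives were DESeq2 1.42.0, its size factors, library size only, upper quartile scaling, no filter on low counts, the replicate number as a block, other fold thresholds and leaving out each library. The genes named were the 10 genes, *Mettl3*, *Epor*, up to 3 called pathway genes per role and comparison with the largest change, and the 5 genes nearest to *Kit*. Some genes that this rule would name are not reported here. *Gm26857*, *Gm20531* and *Tox4* are named as overlapping loci, marker genes as examples of their lists, and *Nras* as a RAS gene beside *Hras*. The genes and lists were chosen with earlier results of these data known. Transcripts and GGACT were read from GENCODE M21 (GRCm38).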

Additional observations from a re-analysis of the deposited data

How the results depend on the processing

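The calls of *Grb2* and *Cbl* in RNA-seq and of *Grb2* in the m6A assay held under every alternative run. Without a fold threshold 2 of the 10 genes were called higher in RNA-seq (*Shc1* and *Inpp5d*). In the m6A assay, leaving out 1 library gave 0 to 3 enriched genes of the 10 and 1 lower, and library size only, upper quartile scaling and no filter on low counts each gave 1 lower. Over all genes, leaving out 1 library gave 164 to 1358 enriched and 427 to 968 lower, against 904 and 900. Of the pathway list, leaving out 1 library gave 6 to 11 higher and 8 to 12 lower in RNA-seq, and 4 to 15 enriched and 5 to 11 lower in m6A. Upper quartile scaling gave 17 enriched and library size only 7 lower. These 2 scalings moved the median m6A log2 fold change of all genes from 0.056 to 0.18 and 0.21, with splits of 1451 enriched and 754 lower, and 934 and 608. The causes were not tested. Fits without a library hold fewer samples, and the part of this in the moved calls was not tested either. With 1 library left out, the RNA-seq log2 fold change ranged from -0.16 to 0.071 for *Lyn*, from -0.22 to 0.31 for *Gab2* (-0.012 without control replicate 2) and from -0.12 to 0.0027 for *Mettl3*, and the m6A value from -0.026 to 0.90 for *Kit* and from -0.038 to 0.26 for *Mettl3*.

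Replicate numbers did not mark a stated pairing. Same-numbered RNA-seq libraries deviated with correlations of 0.034, -0.017 and -0.072, and the 2 m6A pairs with 0.21. With 2 libraries in each m6A group the values of the 2 pairs must be equal, so they are a single observation. The replicate block gave 0 higher and 3 lower of the 10 genes in RNA-seq, 3 enriched and 3 lower in m6A (*Ptpn11* added, adjusted p = 0.027, range 0.027 to 0.46), and 7 higher, 12 lower, 18 enriched and 14 lower of the pathway list. Over all genes the block moved the m6A calls from 904 and 900 to 1783 and 1755.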

Other observations

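Control CFU-E were measured in both tables, which were prepared and normalized separately, so their levels were set side by side without a test. *Kit* had a mean of 598 CPM in RNA-seq and 30.5 CPM in m6A input, and *Inpp5d* 223 and 11.3 CPM. *Grb2* had 40.8 and 198 CPM, and *Ptpn6* 126 and 151 CPM. On the log2 scale (pseudocount 0.5 CPM) input over RNA-seq was -4.27 for *Kit*, with 1.62% of 10773 genes lower, and 2.27 for *Grb2*, with 92.4% of genes lower. Across these genes the ratio had a Spearman's rho of -0.56 with transcript length and the levels of both tables a rho of 0.70 with each other, both given as descriptions.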
